A study of Homo sapiens with 9 samples.

Results

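The DDIT4 promoter is 1 of 20 gene promoters whose chromatin interactions were profiled with Capture-C in HCT-116 MED14-dTAG cells. DDIT4 (ENSG00000168209.6) lies on the plus strand of chromosome 10, from 72273919 to 72276036 in hg38. All DpnII restriction fragments listed within 500 kb of its start site were taken, which gave 2786 fragments of the 47189 listed within 500 kb of the 20 promoters. Of these 2786 fragments, 2746 had signal in at least 1 library and 972 had signal in all 9, and their median length was 238 bp. HCT-116 is a human colorectal carcinoma line, and in the MED14-dTAG cells used in every group, controls included, the Mediator subunit MED14 carries a tag through which a small ligand has it degraded. The control group, DMSO, received the solvent. The second group, dTAG, received 0.5 μM dTAG ligand for 2 h, and the third, dTAG+I-BET, received the same ligand together with the BET bromodomain inhibitor I-BET 151 at 1 μM for 90 min. Each group had 3 libraries, and there was no group with I-BET alone, so the inhibitor was measured only on top of the dTAG ligand. MED14 levels were not measured in these libraries. Whether cohesin occupancy or DDIT4 expression changed was not analysed here.

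DDIT4 encodes a stress-induced inhibitor of mTOR signalling, also known as REDD1, which is switched on by hypoxia, DNA damage, glucocorticoids and energy shortage. Mediator is a large complex that connects transcription factors bound at enhancers to RNA polymerase II at promoters, and MED14 is its backbone. BET proteins bind acetylated histones and also act at enhancers and promoters. In Capture-C, chromatin is crosslinked, cut with DpnII at GATC and religated, and fragments ligated to a chosen promoter fragment, the viewpoint, are enriched with oligonucleotides, so that the number of ligations of each fragment with the viewpoint measures how often they were close together.

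The likely viewpoint fragment is shown first, since every value below is an interaction with the viewpoint. It was inferred from the fragments left out of the table, as no list of capture oligonucleotides was used here. The DDIT4 table left out a stretch of 1425 bp around the start site, at chr10:72273632-72275056. Of the 3 DpnII fragments inside that stretch, the one that holds the start site spans 72273690 to 72274294 and is 605 bp long. Its beginning is printed on the plus strand from the DpnII site, in capitals, to the last base before the DDIT4 start site, and it is promoter sequence that carries no DDIT4 exon. The first bases overlap the exon of ENSG00000289506, a long non-coding RNA gene on the opposite strand.
DDIT4 inferred viewpoint, chr10:72273686-72273918: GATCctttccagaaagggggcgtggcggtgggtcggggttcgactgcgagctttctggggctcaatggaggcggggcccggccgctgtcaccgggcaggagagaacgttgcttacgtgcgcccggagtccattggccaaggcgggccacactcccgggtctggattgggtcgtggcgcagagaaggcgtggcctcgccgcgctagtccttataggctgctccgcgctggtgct

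Between 15623 and 38713 interactions per library were recovered for DDIT4 on chromosome 10, and between 5775 and 18211 of them lay 10 to 500 kb from the start site. The fewest came from dTAG replicate 3, which also had the highest share of interactions with other chromosomes, 49.5% against 42.2% to 45.7% in the other 8 libraries. In that library 37.0% of the chromosome 10 interactions lay from 10 to 500 kb, against 43.9% to 48.5% in the other 8. Signal is given per kb, in the authors' scaled units, in which the DDIT4 signal on chromosome 10 adds up to nearly the same total in each library. Side ratios and correlations between viewpoints are therefore also given without dTAG replicate 3, while the ratios of bands and bins include it. Counts of calls were also made with each library left out. Sequence within 10 kb of the start site was kept out of the tests because signal there is steep. The pattern over the 98 bins of 10 kb was alike in all libraries, with a Pearson correlation of log2 signal of 0.945 to 0.974 within groups and of 0.947 to 0.977 between groups, described here without a test because the bins share the fall of signal with distance.

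In DMSO, the upstream and downstream sides of the DDIT4 promoter had unlike profiles. From 10 to 500 kb as a whole, the log2 ratio of downstream to upstream signal averaged -0.55. This was 11th from the lowest of the 20 viewpoints, whose median was -0.63, so the imbalance as a whole was ordinary for the set. Close to the gene, signal was high on both sides. From 10 to 50 kb downstream, the 3 DMSO libraries had 2508, 2390 and 2267 per kb, a mean of 2388 ± 121 (SD, n = 3), which was the highest of the 20 viewpoints for this band. From 10 to 50 kb upstream they had 2232, 2071 and 2058 per kb, with a mean of 2120 ± 96.9, the second highest of the 20. Further out the sides parted. From 100 to 250 kb, the upstream side had 520, 489 and 413 per kb and the downstream side 104, 111 and 101 per kb. The downstream mean of 105 ± 4.90 per kb was the lowest of the 20 viewpoints, whose other 19 ranged from 146 to 708 per kb in this band with a median of 296. From 250 to 500 kb, the mean was 271 ± 16.4 per kb upstream and 110 ± 2.22 downstream.

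**Figure D1:**
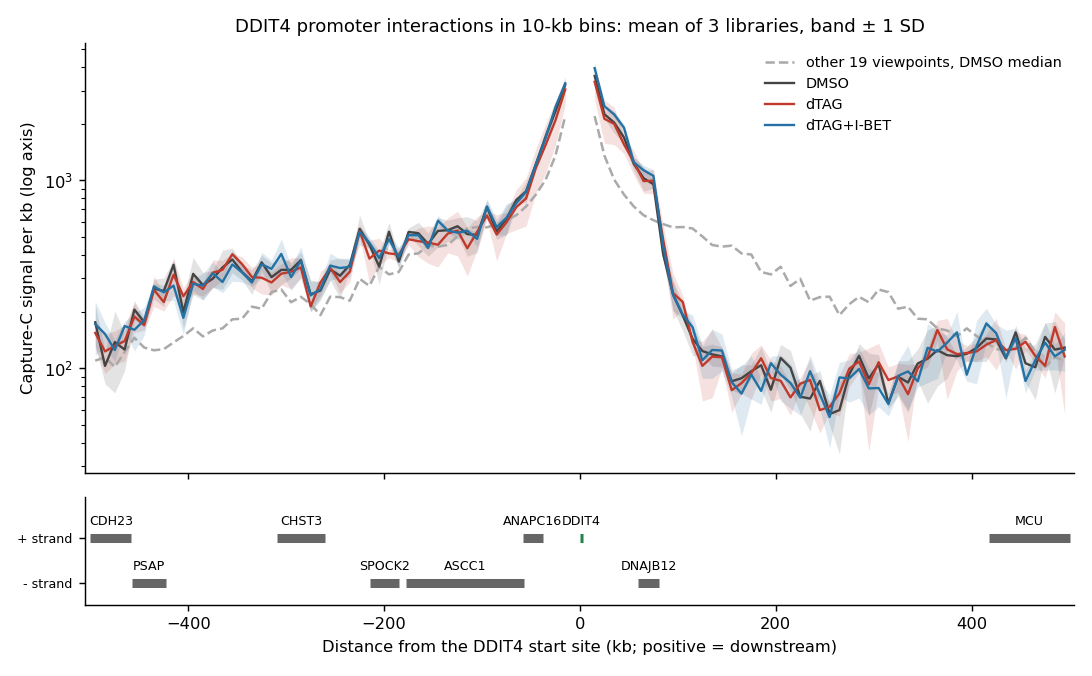
Capture-C signal per kb (log axis) in 10-kb bins against distance from the DDIT4 start site in kb, with lines for the means of the 3 libraries of each group, bands of 1 SD and a dashed line for the DMSO median of the other 19 viewpoints at the same distance; the lower track shows protein-coding genes named in the text by strand. The 3 group lines run together on both sides, and downstream they cross below the dashed line near 80 kb, where the DMSO mean falls from 952 to 403 per kb between neighbouring bins.

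The change on the downstream side was abrupt. In successive DMSO bins, starting 60, 70, 80, 90 and 100 kb downstream, mean signal was 1027, 952, 403, 248 and 191 per kb. The bin starting at 70 kb lies in the body of DNAJB12, which encodes a J-domain co-chaperone of the endoplasmic reticulum membrane, and the drop coincides in position with the start site of that gene, 81.2 kb from DDIT4. Over the 20 kb before and the 20 kb after that point, DMSO signal fell from 990 to 326 per kb. Per library, the log2 ratio of the inner to the outer stretch was 1.64, 1.67 and 1.50 in DMSO, 1.48, 1.34 and 1.50 in dTAG, and 1.60, 1.66 and 1.73 in dTAG+I-BET. The step was thus present in all 9 libraries, and its DMSO mean, a 3.03-fold drop, ranked first among the 40 sides of the 20 viewpoints. The same ratio over the other 38 sides ranged from -0.26 to 1.03 with a median of 0.19. On the upstream side of DDIT4 it averaged 0.17 in DMSO. The position of 80 kb was chosen after the profile had been seen, so no test was made of the step or of its differences between groups. The other sides were scored at this position and not at their own steepest drops, which favours DDIT4 in the ranking.

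**Figure D2:**
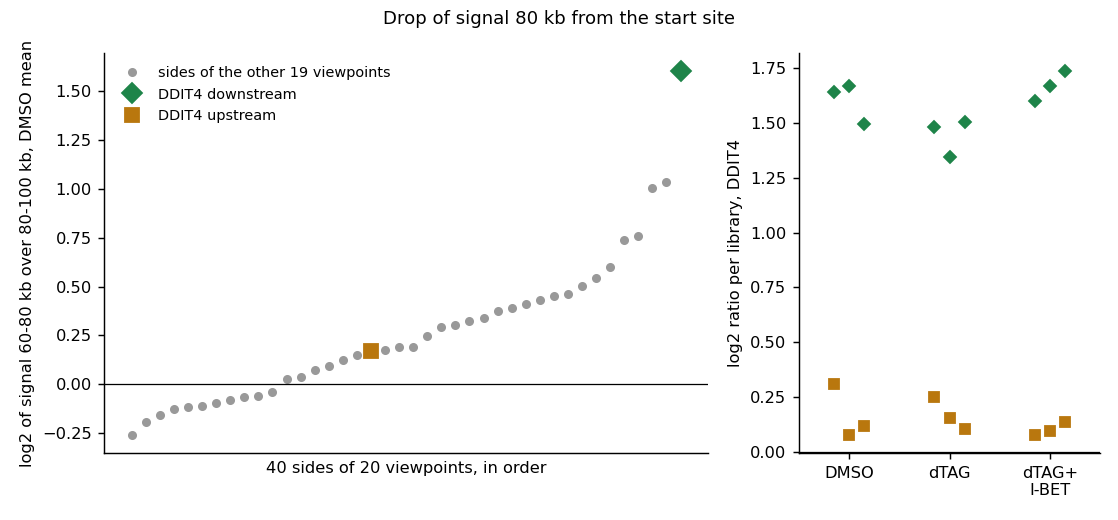
Left, log2 of the DMSO signal 60 to 80 kb over that 80 to 100 kb from the start site for each of the 40 sides of the 20 viewpoints, in order, with DDIT4 marked; right, the same log2 ratio in each of the 9 libraries for the 2 sides of DDIT4. At this position, chosen from the DDIT4 profile, the downstream side of DDIT4, at 1.60, lies above all other sides. Its 9 libraries lie between 1.34 and 1.73.

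Beyond the step, signal stayed low and was a little higher again towards MCU, which encodes the pore of the mitochondrial calcium uniporter. The lowest bin, starting 250 kb downstream, had 57.0 per kb in DMSO. Of the 42 pairs of bins at equal distance from 80 to 500 kb, 35 were lower downstream than upstream in all 9 libraries, and none was higher downstream in all 9. Within 80 kb the order was the other way round, with 6 of 7 pairs higher downstream in all 9 libraries. The bins of a side share libraries and the decay of signal with distance, so these counts describe the shape of the profile.

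Upstream, signal fell gradually and passed 5 genes before reaching CDH23, a cadherin gene. The upstream bins furthest above the median of the other viewpoints lay over 350 kb away. The bin starting 420 kb upstream, at chr10:71853919-71863918, had 351, 380 and 334 per kb in DMSO, 2.59 times the median of 137 per kb of the other viewpoints at that distance. It lies beside the start of PSAP, on the side towards DDIT4, and that gene encodes prosaposin, the precursor of the activators of lysosomal sphingolipid breakdown. The other bins chosen by the same rule, at least 20 kb apart, started 440, 370 and 400 kb upstream and 30 kb downstream, with ratios of 2.13, 2.11, 1.95 and 2.01. The upstream bins named here held medians of 67 to 76 interactions per library, against 59 over the DDIT4 bins, so counting error remains. The ratio also compares DDIT4 with loci that differ in gene content.

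Start sites of 8 neighbouring protein-coding genes lay 10 to 500 kb away, in 7 windows of 5 kb to each side, since ASCC1, a subunit gene of the activating signal cointegrator complex, and ANAPC16, a subunit gene of the anaphase-promoting complex, start next to each other and share 1. In DMSO the level over the other viewpoints was highest at the PSAP start, with 253, 290 and 294 per kb and a ratio of 2.18. Next came the ANAPC16 and ASCC1 window, with 897, 926 and 776 per kb and a ratio of 1.29, and CHST3, a chondroitin sulfotransferase gene, with 273, 446 and 316 per kb and a ratio of 1.26. Lower ratios were those of MCU, with 147, 110 and 102 per kb and 0.950, and DNAJB12, with 600, 651 and 617 per kb and 1.04. The DNAJB12 window spans the downstream step, and the body of that gene, just inside the step, had a ratio of 1.41. SPOCK2, which encodes an extracellular matrix proteoglycan, lay between, at 1.14. DMSO replicates of the CHST3 window spread widely, and the order of neighbours in this list was not tested.

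A CTCF-like motif was searched because CTCF, a DNA-binding insulator protein, stops cohesin and often marks the edges of interaction domains. The letters searched, on both strands, were CCA, 2 bases of any kind, AGG, 1 base of any kind and GGC. Matches lay in 6 of the 98 DDIT4 bins (6.12%), against 135 of the 1960 bins of all viewpoints (6.89%). The 3 matches nearest the downstream step are printed in the direction of the motif, with the motif in capitals. Matches a and b lie in an intron of DNAJB12, 63.4 and 63.5 kb downstream, on the minus strand, and match c lies between genes, 90.5 kb downstream, on the plus strand, so that they sit on either side of the drop.
Match a, chr10:72337322-72337351: ccttctcagCCAGCAGGGGGCagagtcggt
Match b, chr10:72337369-72337398: ccccctctcCCAAAAGGTGGCcacctctgg
Match c, chr10:72364443-72364472: gccttcttgCCAGCAGGTGGCacttgaagc
The other 5 matches were upstream, in the bins starting 470, 390, 300 and 230 kb away, and none fell in the bins named in this text for their level or their p. A match says only that these letters are present, and occupancy was not analysed here.

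The first comparison, dTAG against DMSO, asks how DDIT4 promoter interactions differ after treatment to deplete MED14. No region of the DDIT4 neighbourhood passed the test. Over the whole upstream side from 10 to 500 kb, signal was 544, 541 and 501 per kb in DMSO and 542, 538 and 415 per kb in dTAG, and the groups overlapped. The log2 ratio was -0.09 (SE 0.116, 95% interval -0.34 to 0.15, limma adjusted p = 0.681). Over the downstream side, signal was 377, 365 and 344 per kb in DMSO and 387, 377 and 296 per kb in dTAG, with a log2 ratio of -0.04 (95% interval -0.28 to 0.20, limma adjusted p = 0.871). Both signs turned without dTAG replicate 3, to 0.03 upstream and 0.08 downstream, and the downstream one also after rescaling, to 0.01. Of all 40 sides, 5% were called in this comparison.

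By distance, 0 of 8 DDIT4 bands were called, where 5.62% of the 160 bands of all viewpoints were. At an unadjusted p under 0.05, 0 of the 8 passed, and edgeR on the recovered interactions also called 0. The log2 ratios of the bands ran from -0.14 to 0.04. In the 10 to 50 kb band upstream, dTAG replicates 1 and 2 had 2234 and 2204 per kb, within or just above the DMSO range of 2058 to 2232, and dTAG replicate 3 had 1439. The downstream band from 100 to 250 kb, low in DMSO, was low in dTAG too, at 109, 103 and 94.2 per kb, with a 95% interval of the log2 ratio from -0.25 to 0.16.

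**Figure D3:**
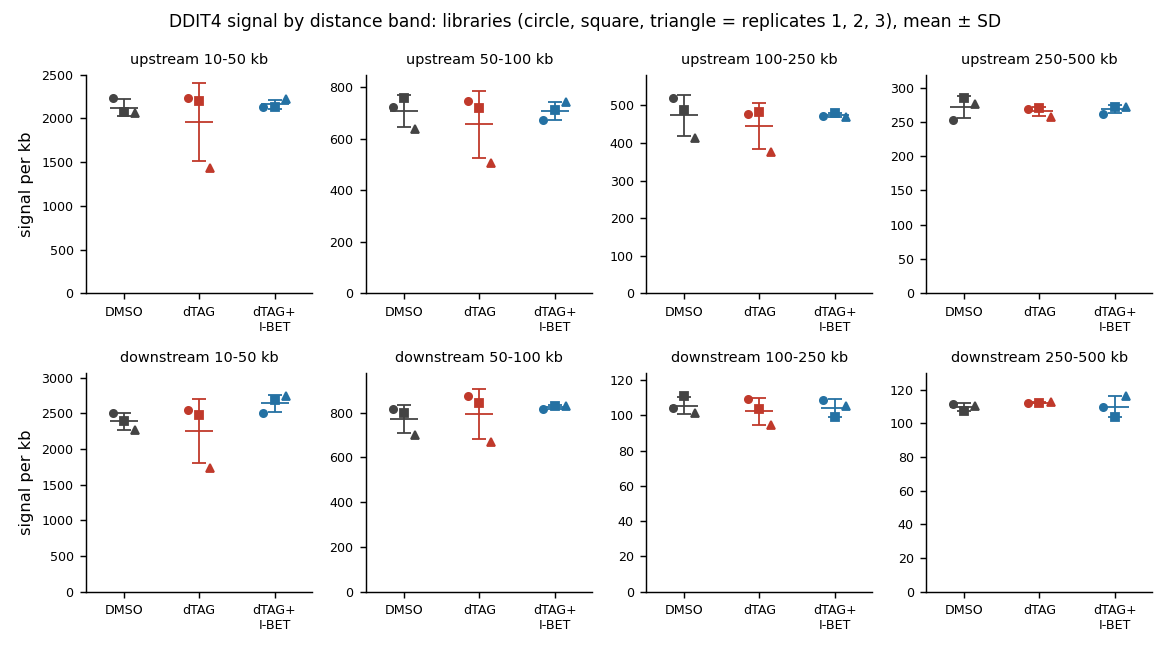
Capture-C signal per kb in the 8 distance bands of DDIT4 for the 9 libraries, with circles, squares and triangles for replicates 1, 2 and 3 and lines for the mean and SD of each group; each panel starts at 0 with a scale of its own. The red triangle, dTAG replicate 3, lies below the other dTAG libraries in the bands up to 250 kb, for example at 1439 against 2234 and 2204 per kb from 10 to 50 kb upstream.

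Among the 98 bins, 0 were called against 1.58% of the 1960 bins of all viewpoints, 1 passed an unadjusted p under 0.05, and edgeR called 0. The median log2 ratio of the DDIT4 bins was -0.06, beside -0.07 over all bins, and 61 of the 98 were below 0. Groups did not overlap in 4 bins, where 16.3% of all bins did not overlap. The bin with the lowest p started 200 kb upstream, in SPOCK2. It had 587, 549 and 461 per kb in DMSO and 398, 433 and 393 per kb in dTAG, so all dTAG libraries were lower, but the log2 ratio of -0.38 (SE 0.154) did not pass (limma adjusted p = 0.263). The next 2, starting 470 kb downstream in MCU and 240 kb downstream, had log2 ratios of -0.50 and -0.53 and adjusted p of 0.378 and 0.443 by limma. None of the 7 promoter windows was called (1.45% of 138 over all viewpoints), and none of the 9 gene bodies (1.92% of 104). The 3 windows with the lowest p were PSAP, with a log2 ratio of -0.28, DNAJB12, with 0.25, and MCU, with 0.20, at limma adjusted p of 0.662, 0.745 and 0.784. In all 3 comparisons, 0 promoter windows, gene bodies and sides of DDIT4 had an unadjusted p under 0.05, and edgeR called 0.

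The second comparison, dTAG+I-BET against DMSO, asks the same of MED14 depletion combined with BET inhibition. Signal within 500 kb was again close to that in DMSO. Upstream, dTAG+I-BET libraries had 520, 532 and 540 per kb, which overlapped DMSO, and the log2 ratio was 0.01 (95% interval -0.24 to 0.25, limma adjusted p = 0.977). Its sign turned after rescaling and without either of 2 libraries. Downstream they had 377.2, 387 and 400 per kb, all just above the highest DMSO library at 376.7, and the log2 ratio of 0.10 did not pass (SE 0.116, 95% interval -0.14 to 0.34, limma adjusted p = 0.749). The SE is shared by all groups and so takes in the spread from dTAG replicate 3. Without that library the limma adjusted p was 0.110, which did not pass either. Groups did not overlap in 47.5% of the 40 sides in this comparison, and 7.5% were called.

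No DDIT4 band was called (0 of 8, against 10% of 160), and none had an unadjusted p under 0.05. The largest band ratios were 0.15 from 10 to 50 kb and 0.10 from 50 to 100 kb, both downstream, the second of which spans the step. From 10 to 50 kb downstream, dTAG+I-BET libraries had 2507, 2683 and 2739 per kb against 2508, 2390 and 2267 in DMSO, so only the lowest of them overlapped the DMSO range. Beyond the step, from 100 to 250 kb downstream, they had 109, 98.9 and 105 per kb, with a 95% interval of the log2 ratio from -0.22 to 0.19. Of the bins, 0 of 98 were called, against 4.9% of 1960, with 1 at an unadjusted p under 0.05 and 0 called by edgeR. The median of the DDIT4 bins was -0.01, beside 0.01 over all bins, and groups did not overlap in 10 bins, against 26.3% of all bins.

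The bin with the lowest p started 490 kb upstream, in CDH23. It had 102, 82.9 and 123 per kb in DMSO and 162, 167 and 126 per kb in dTAG+I-BET, without overlap, and its log2 ratio of 0.57 (SE 0.239) did not pass (limma adjusted p = 0.235). The bin starting 420 kb upstream, the one furthest above the other viewpoints in DMSO, came second. It had 260, 238 and 327 per kb in dTAG+I-BET, all below the DMSO libraries, with a log2 ratio of -0.38 (95% interval -0.77 to 0.01, limma adjusted p = 0.332), and in dTAG it had 318, 383 and 242 per kb. The third, 260 kb downstream, had a log2 ratio of 0.63 (limma adjusted p = 0.344) on a level of 59.8 per kb in DMSO. No promoter window (0.725% over all viewpoints) or gene body (5.77%) was called. The MCU start had the lowest p of the windows, with 162, 125 and 209 per kb in dTAG+I-BET against 147, 110 and 102 in DMSO, and the groups overlapped (log2 ratio 0.46, limma adjusted p = 0.377). The DNAJB12 body, just inside the step, had 1070, 1061 and 1058 per kb in dTAG+I-BET and 1016, 962 and 845 in DMSO, without overlap, in a comparison where 36.5% of gene bodies did not overlap (log2 ratio 0.18, limma adjusted p = 0.481).

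**Figure D4:**
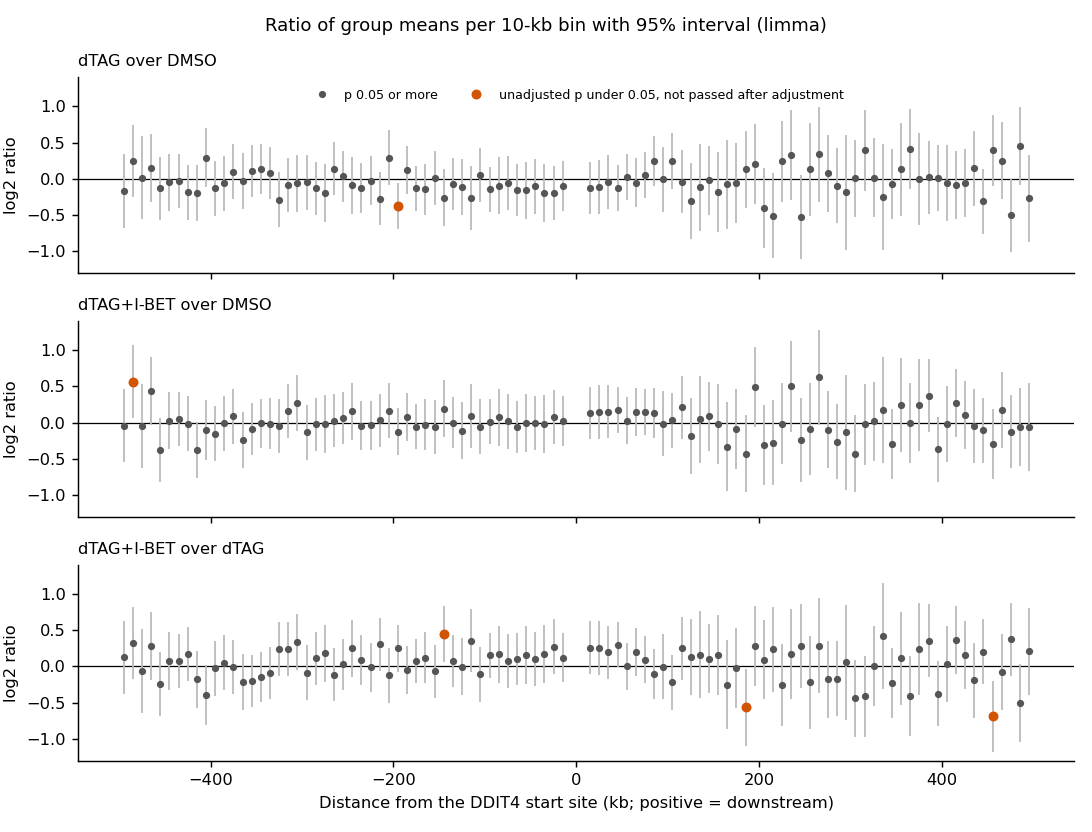
The log2 ratio of signal per 10-kb bin with its 95% interval (limma) against distance from the DDIT4 start site in kb, for the 3 comparisons. Orange points, 1, 1 and 3 of 98, have an unadjusted p under 0.05, and none passed after adjustment over the 1960 bins of all viewpoints.

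The third comparison, dTAG+I-BET against dTAG, sets the inhibitor on top of the ligand against the ligand alone. Both sides had positive log2 ratios, 0.10 upstream (limma adjusted p = 0.496) and 0.14 downstream (limma adjusted p = 0.452), and without dTAG replicate 3 they were -0.03 and 0.02. No band, bin, promoter window or gene body of DDIT4 was called, and by limma none was called at any of the 20 viewpoints (0% in each family). For the DDIT4 bins, 3 had an unadjusted p under 0.05, and edgeR called 0. They started 450 kb downstream in MCU (log2 ratio -0.69), 150 kb upstream in ASCC1 (0.45) and 180 kb downstream (-0.57), each with a limma adjusted p of 0.713. In the MCU bin, dTAG libraries had 123, 147 and 145 per kb and dTAG+I-BET libraries 73.1, 96.1 and 87.1. Groups did not overlap in 11 bins, where 13.9% of all bins did not. The median DDIT4 bin was at 0.09, as was the median of all bins.

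DDIT4 was also set against the other 19 viewpoints of the same libraries, which takes out what a library does at all promoters alike. For each band, the mean log2 signal of the other viewpoints in a library was subtracted from that of DDIT4. The tests thus compare DDIT4 with that mean, over the spread between libraries and not among the other viewpoints. In dTAG against DMSO, 0 of 8 bands were called (10.6% of 160), and 2 had an unadjusted p under 0.05. The downstream 10 to 50 kb band came nearest, with a difference of -0.14 (95% interval -0.25 to -0.04, limma adjusted p = 0.0737). There DDIT4 was 0.91, 0.89 and 0.93 log2 above the others in DMSO and 0.76, 0.76 and 0.78 in dTAG, so the groups did not overlap, dTAG replicate 3 included. The upstream 100 to 250 kb band was next, at 0.13 (limma adjusted p = 0.108).

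In dTAG+I-BET against DMSO, 2 of 8 bands were called, where 25.6% of the 160 bands of all viewpoints were, so the share at DDIT4 was near the background. At an unadjusted p under 0.05, 4 of the 8 passed. The called bands both lie downstream and inside 100 kb. From 10 to 50 kb downstream, DDIT4 stood 0.70, 0.75 and 0.77 log2 above the other viewpoints in dTAG+I-BET, against 0.91, 0.89 and 0.93 in DMSO, a difference of -0.17 (SE 0.0474, 95% interval -0.27 to -0.07, limma adjusted p = 0.0234). From 50 to 100 kb downstream it stood 0.32, 0.34 and 0.34 above them, against 0.60, 0.56 and 0.46 in DMSO, a difference of -0.20 (SE 0.0602, 95% interval -0.34 to -0.07, limma adjusted p = 0.0293). In both bands DDIT4 itself was a little higher than in DMSO (0.15 and 0.10), while the mean of the other viewpoints was 0.32 and 0.30 higher. Neither call held without DMSO replicate 1 or without any one dTAG+I-BET library, when the lowest adjusted p lay between 0.0508 and 0.0879, and 1 of the 2 held without DMSO replicate 2. The upstream 100 to 250 kb band went the other way, at 0.12 (limma adjusted p = 0.0897), and was called after rescaling, at 0.16 (limma adjusted p = 0.0242). In dTAG+I-BET against dTAG, 0 of 8 bands were called by limma and 0% over all viewpoints, with 0 of 8 at an unadjusted p under 0.05.

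**Figure D5:**
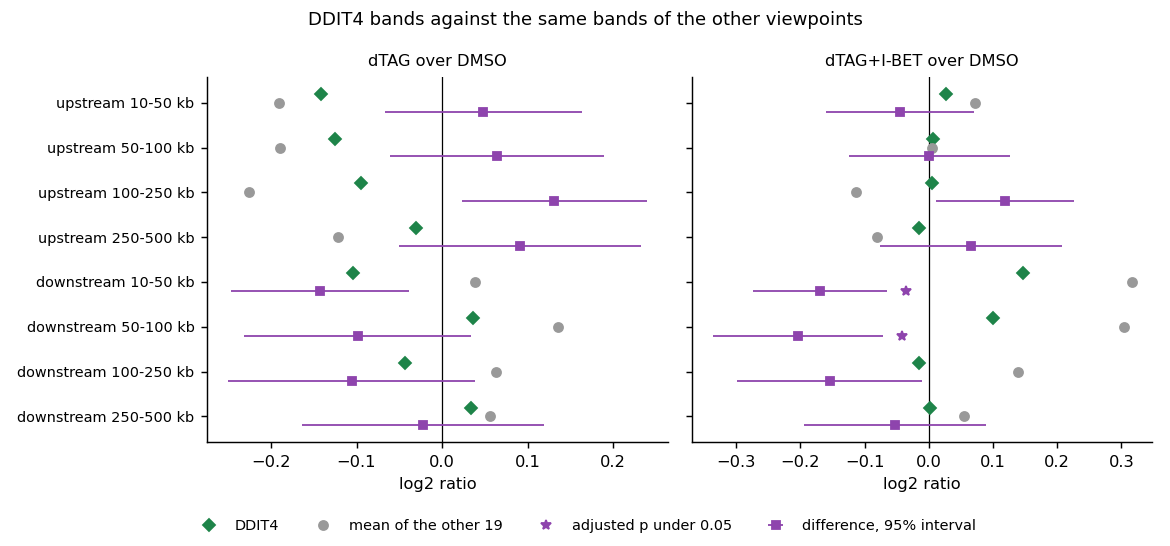
Log2 ratios in the 8 distance bands for DDIT4 (green diamonds), the mean of the other 19 viewpoints (grey circles) and their difference with its 95% interval (purple squares), for dTAG and dTAG+I-BET over DMSO; a star marks an adjusted p under 0.05. For dTAG+I-BET, the 2 starred differences, -0.17 and -0.20, are in the bands from 10 to 50 and 50 to 100 kb downstream. There the mean of the other viewpoints lay further above DMSO than DDIT4 did.

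The balance between the sides does not depend on how a library was scaled. The log2 ratio of downstream to upstream signal from 10 to 500 kb was -0.53, -0.57 and -0.54 in DMSO, -0.49, -0.51 and -0.49 in dTAG, and -0.46, -0.46 and -0.43 in dTAG+I-BET. The 3 groups did not overlap with each other. The differences were 0.05 for dTAG and 0.10 for dTAG+I-BET against DMSO, and 0.04 between the treated groups, each with an exact two-sided permutation p of 0.1, the smallest that 3 libraries against 3 allow. Such ratios did not overlap between groups at 50%, 65% and 25% of the 20 viewpoints in these comparisons, so DDIT4 was not alone in any of them. Viewpoints that separated in all 3 comparisons were not counted. With 20 kb in place of 10 kb left out, the difference between dTAG+I-BET and dTAG was 0.02 (exact permutation p = 0.5).

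Outside the tested range, signal was summed over further stretches, and dTAG+I-BET and DMSO did not overlap in 2 of them, as was common at other viewpoints. Between 2 and 10 kb downstream, which covers the end of DDIT4 and the sequence behind it, signal was 6215, 5922 and 5879 per kb in DMSO, 6292, 6103 and 5887 in dTAG, and 6243, 6678 and 6971 in dTAG+I-BET, and all dTAG+I-BET libraries were above the DMSO ones (exact two-sided permutation p = 0.1), in a stretch where these groups did not overlap at 45% of the 20 viewpoints. From 500 kb to 1 Mb on both sides, dTAG+I-BET libraries had 82.7, 81.5 and 78.6 per kb, below the 84.8, 88.0 and 92.2 of DMSO, with the same p, and dTAG libraries had 80.2, 88.2 and 100.4. Here the groups did not overlap at 60% of the viewpoints. The share of DDIT4 interactions with other chromosomes had a median of 43.8% over the libraries, where the other viewpoints had medians from 24.4% to 45.8%.

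Over the 9 libraries, the log2 signal from 10 to 500 kb at ITPRID2, TRIB1 and KRR1 was most like that at DDIT4, with Pearson correlations of 0.997, 0.984 and 0.971, and all 19 correlations were 0.837 or higher. The viewpoints share libraries, and without dTAG replicate 3 these 3 values were 0.973, 0.903 and 0.736 and the lowest of the 19 was 0.327. The order then changed, with KRT19 second at 0.912 and KRR1 also below VTI1A and ANGPT2, at 0.868 and 0.821.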

How the data were processed

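Capture-C libraries of 3 biological replicates per group were made by DpnII digestion, ligation and 2 rounds of oligonucleotide capture, per the study's methods; the letters TR before the replicate number in the deposited columns are not explained in the sources used here, so the spread may be partly technical. The authors processed reads with CapCruncher (Bowtie2, Samtools; bcl2fastq 2.17 per the submitters' processing notes) against hg38 and deposited, for each viewpoint, a signal per DpnII fragment and library. The scaling formula is not given in the sources used here. All deposited signal values were whole multiples (tolerance 0.01) of the smallest in their column, so interactions were recovered; PCR copies may remain, and intervals cover the spread between libraries. Signal was summed per 10-kb bin, band, side, promoter window and gene body of all 20 viewpoints, divided by length, and tested as log2(signal per kb + 1) with limma 3.58.1 (R 4.3.3) across all features and 9 libraries, with Benjamini-Hochberg adjustment at 0.05; a bin entered if its mean over libraries reached 2 per kb, as all did. edgeR 4.0.16 on interactions was an alternative. Named bins were the 3 of lowest p per comparison and the 5 furthest above other viewpoints; genes came from GENCODE, and 1 neighbouring gene, counted among the windows and bodies, is not reported here. Members, lists and tests were chosen with earlier results of these data known. The limma and edgeR fits of 10-kb bins were tested on simulated data, for dTAG against DMSO only. A median of 59 interactions per bin and library gives a counting error of 0.15 on a log2 ratio, beside a fitted SE of 0.19.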

Additional observations from a re-analysis of the deposited data

Results flagged for a closer look

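The effect of dTAG+I-BET against DMSO differed between DDIT4 and the other 19 viewpoints in 2 bands, by a test of the difference itself. It was -0.17 on the log2 scale from 10 to 50 kb downstream and -0.20 from 50 to 100 kb downstream, by limma, and every dTAG+I-BET library lay below every DMSO library in both. The 2 of 8 bands are near the background, as 25.6% of the bands of all viewpoints were called. Both calls were lost without DMSO replicate 1 or without any one dTAG+I-BET library, where the lowest limma adjusted p was 0.0508 to 0.0879. No explanation was tested.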

How the results depend on the processing

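In the 198 alternative runs of the 12 counts of called DDIT4 bins, bands, promoter windows and gene bodies, the count stayed at 0. These runs covered rescaling to equal totals from 10 kb to 1 Mb, each library left out, other pseudocounts, only the 2 groups compared, edgeR, and, where they apply, other bin sizes, filters and window widths. The side values were called in none of their runs, where the lowest limma adjusted p was 0.110, for downstream in dTAG+I-BET against DMSO without dTAG replicate 3, and 0.116 after rescaling, against 0.749 as reported. They changed sign in 7 runs. With 1 library left out, the upstream log2 ratio ran from -0.160 to 0.031 in dTAG against DMSO, from -0.033 to 0.027 in dTAG+I-BET against DMSO and from -0.026 to 0.166 in dTAG+I-BET against dTAG, and the downstream one from -0.113 to 0.080 in dTAG against DMSO. Rescaling gave -0.012 upstream in dTAG+I-BET against DMSO and 0.011 downstream in dTAG against DMSO. Of the bands set against the other 19 viewpoints, dTAG against DMSO had 2 called after rescaling, and dTAG+I-BET against DMSO had 0 to 2 called when 1 library was left out, 3 after rescaling and 2 under the other alternatives. The cause was not tested. The replicate numbers were not used as pairs in the main tests. Same-numbered samples of different groups deviated together with correlations of -0.06 to 0.23 over all bins, and differently numbered ones with -0.23 to 0.16. These ranges overlap, so they do not decide whether the numbers mark pairs. With the replicate number as a block, the DDIT4 counts were the same, at 2 for bands against the other viewpoints in dTAG+I-BET against DMSO and 0 elsewhere, while calls over all 1960 bins moved from 31 to 70 in dTAG against DMSO and from 96 to 115 in dTAG+I-BET against DMSO. The block left the side values at -0.09, 0.01 and 0.10 upstream and at -0.04, 0.10 and 0.14 downstream, and in the downstream over upstream ratio at 0.05, 0.10 and 0.04 with an exact paired permutation p of 0.25, the smallest 3 pairs allow. Bins beyond 100 kb downstream hold few interactions, so changes there below the stated intervals were not detectable at this depth.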
